A study of Mus musculus with 3 samples.

Results

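A set of 8 genes of osteoclast differentiation and function were followed in cultured synovial cells of arthritic mice: *Trem2*, *Tyrobp*, *Oscar*, *Calcr*, *Nfatc1*, *Mitf*, *Acp5* and *Ctsk*. They were taken by name, as the probes that the platform annotation gives these symbols, and the list of names was drawn up with earlier results of these data known. Together the 8 genes had 10 probes, 2 each for *Mitf* and *Acp5*, out of 20690 probes that carried a gene symbol for 19321 genes. All 8 genes were detected on all 3 arrays, as were 15628 of the 19321 named genes. The cells came from the pannus of D1BC mice, which carry the B7.1 (CD80) gene under the rat type II collagen promoter and enhancer on a DBA/1 background, and in which arthritis had been induced with bovine type II collagen. The labels name them primary fibroblast like synoviocyte from inflamed joints, and by the study they held both CD45+ macrophages and CD45- fibroblast-like synoviocytes (FLSs). After culture overnight, the cells received CTLA-4-Ig (abatacept, the extracellular part of CTLA-4 joined to a modified human IgG1 Fc region), human IgG (hIgG) as the control protein, or vehicle (medium with serum) for 48 h. The methods and the sample titles give the protein amount in μg (100 μg per ml in the methods), whereas the treatment protocol of the labels gives mg. The age of the mice at harvest and the number of mice behind each culture are not given in the sources used here. Each condition was hybridized to 1 array, so the differences below have no replicate check and are given without tests or p-values.

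Osteoclasts are the cells that resorb bone, and they form by fusion of precursors of the monocyte and macrophage lineage under M-CSF and RANKL. RANKL signaling, together with receptors that act through the adaptors Tyrobp (DAP12) and the Fc receptor gamma chain, leads to induction of Nfatc1, the main transcription factor of osteoclast formation, and Mitf acts with it on genes of resorption. The enzymes Acp5 (tartrate-resistant acid phosphatase) and Ctsk (cathepsin K) are made in large amounts by osteoclasts, although macrophages also express *Acp5* and synovial fibroblasts also express *Ctsk*. Bone destruction by osteoclasts at the edge of the pannus is a hallmark of inflammatory arthritis. The arrays measured bulk RNA, in which fewer cells of a type and less RNA per cell cannot be told apart.

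The promoters of *Acp5*, *Oscar* and *Ctsk* are shown because these genes are known targets of Nfatc1 and Mitf in osteoclasts, and that of *Trem2* because this gene differed most between the arrays. The sequences are from RefSeq (GRCm38.p6), from 250 bases before to 50 bases after a gene start. The search covered 11 such windows of 6 of the 8 genes, and none of *Nfatc1* or *Tyrobp*. It left out member windows by a chromosome filter that was not applied to the windows of all promoters used for comparison. Capitals mark the E-box CACGTG or CATGTG, the motif of the Mitf family, on either strand (CATGTG reads CACATG on the other strand), and the AP-1 motif TGANTCA, bound by Fos and Jun proteins, on either strand.
Acp5, chr9:22130549-22130848, minus strand: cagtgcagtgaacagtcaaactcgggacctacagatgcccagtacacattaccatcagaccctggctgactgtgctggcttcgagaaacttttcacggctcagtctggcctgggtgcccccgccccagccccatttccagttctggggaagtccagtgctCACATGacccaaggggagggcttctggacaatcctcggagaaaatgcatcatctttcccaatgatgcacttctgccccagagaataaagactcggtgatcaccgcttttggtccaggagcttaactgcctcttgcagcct
Oscar, chr7:3616108-3616407, minus strand: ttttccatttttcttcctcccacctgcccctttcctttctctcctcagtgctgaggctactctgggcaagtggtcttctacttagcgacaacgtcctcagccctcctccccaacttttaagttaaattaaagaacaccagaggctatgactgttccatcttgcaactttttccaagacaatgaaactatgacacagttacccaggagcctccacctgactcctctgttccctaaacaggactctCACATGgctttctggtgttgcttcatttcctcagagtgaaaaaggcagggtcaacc
Ctsk, chr3:95498960-95499259, plus strand: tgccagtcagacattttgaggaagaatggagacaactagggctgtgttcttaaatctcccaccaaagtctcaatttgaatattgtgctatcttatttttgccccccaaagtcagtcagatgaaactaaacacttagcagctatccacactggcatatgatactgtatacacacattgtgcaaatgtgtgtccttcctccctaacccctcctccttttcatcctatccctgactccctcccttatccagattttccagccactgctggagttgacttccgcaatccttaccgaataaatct
Trem2, chr17:48346151-48346450, plus strand: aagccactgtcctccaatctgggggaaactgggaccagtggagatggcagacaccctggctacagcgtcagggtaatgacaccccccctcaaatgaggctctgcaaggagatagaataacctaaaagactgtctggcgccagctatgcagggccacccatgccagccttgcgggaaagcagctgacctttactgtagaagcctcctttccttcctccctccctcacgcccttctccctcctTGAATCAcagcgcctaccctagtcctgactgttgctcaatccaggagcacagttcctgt
An E-box was found in 2 of the 11 windows, 90 bases before the start of *Acp5* shown and 6 bases before that of *Oscar*, whereas 20.4% of 32851 promoter windows of the same length hold one. The AP-1 motif was found in 1 window, 9 bases before the start of *Trem2* (7.81% of all windows). The short core of the NFAT motif, GGAAA on either strand, was in 9 of the 11 windows and in 61.3% of all windows. These matches describe the letters only. The windows of *Ctsk*, *Calcr*, *Mitf* and the other starts of *Acp5* held neither capitalized motif.

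Signals are the deposited normalized values, which are linear and scaled so that the median of the detected signals of each array is 25. A probe was detected down to a limit of 0.791 for CTLA-4-Ig, 0.894 for hIgG and 0.963 for vehicle, which is 2 standard deviations of the blank spots. Between 81.4% and 84.0% of the 23473 probes were detected. The hIgG and vehicle arrays are the only control pair, and their log2 ratio had a standard deviation (SD) of 0.17 over 8293 genes whose mean signal reached 25. This spread was wider for dim probes, at 0.42 below a signal of 5 and 0.15 from 1000 upwards. It is a spread across genes between 2 arrays, holds any response to hIgG, and does not measure the replicate error of a gene. Over the same 8293 genes the SD was 0.19 for CTLA-4-Ig against hIgG and 0.19 for CTLA-4-Ig against vehicle. The median log2 ratio of all 15628 genes was 0.09 for CTLA-4-Ig against hIgG, 0.11 against vehicle and 0.03 between the controls (hIgG against vehicle). Of the markers of expected cells, all 10 for macrophages and all 9 for FLSs were detected, with signals between 78.6 and 32021. Among markers of other cells, *Cd3e* and *Cd3g* of T cells, *S100a9*, *Kit*, *Pecam1*, *Acan* and *Dct* were not detected on all 3 arrays, and the detected markers of T, B, mast and endothelial cells and melanocytes lay between 0.990 and 12.2. The detected markers of neutrophils, osteoblasts and chondrocytes lay between 5.10 and 111.

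None of the 8 osteoclast genes differed 2-fold or 1.5-fold between any of the conditions. Over all detected genes, 0.627% were at least 2-fold apart for CTLA-4-Ig against hIgG, 0.8% for CTLA-4-Ig against vehicle and 0.512% for hIgG against vehicle. At 1.5-fold the shares were 4.52%, 5.43% and 3.69%. With 8 genes, a count of 0 is close to these shares and says nothing particular to the osteoclast genes. The ratio of the highest to the lowest array ran from 1.06-fold for *Mitf* to 1.33-fold for *Trem2*. The highest signal was on the CTLA-4-Ig array for 5 genes and on the hIgG array for 3, and over all 15628 genes these shares were 56.4% and 22.6%. The 5 include *Calcr*, whose range lay within the spread of the blank spots, and *Mitf*, whose brighter probe was highest on vehicle. The 3 include *Acp5*, whose bright probe was highest on CTLA-4-Ig. The lowest was on the vehicle array for 4 genes (45.9% of all genes), on hIgG for 3 (33.6%) and on CTLA-4-Ig for 1 (19.1%). The median log2 ratio of the 8 genes was 0.12 for CTLA-4-Ig against hIgG and 0.07 for CTLA-4-Ig against vehicle, close to the medians of all genes. It was 0.15 for hIgG against vehicle, where 5 genes exceeded the all-gene median and 3 did not. Every gene lay within the 5th to 95th percentile of all genes in all 3 comparisons. The same percentile range is narrower for the 8293 brighter genes, to which 7 of the 8 belong. Outside it lay 2 genes for CTLA-4-Ig against hIgG (*Tyrobp* and *Oscar*, lower), 2 against vehicle (*Trem2* and *Nfatc1*, higher) and 1 between the controls (*Tyrobp*, higher). By definition 5% of the brighter genes lie below this range and 5% above it. *Nfatc1* passed its upper end narrowly, at 0.397 against 0.393. With 7 genes, these counts are not read as a result about the osteoclast genes.

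**Figure D1:**
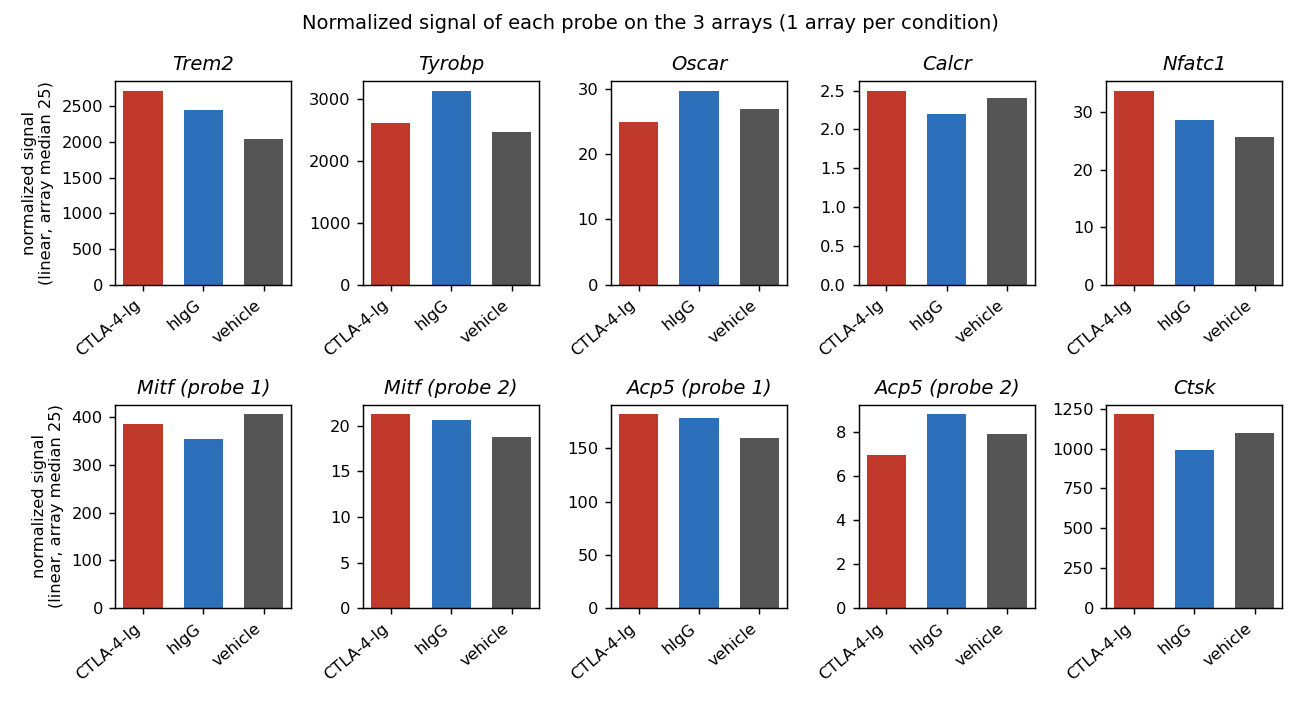
Normalized signal (linear scale, starting at 0) of each of the 10 probes under each condition (CTLA-4-Ig, hIgG, vehicle), 1 bar per array and no error bars because each condition has 1 array. Probe 1 of *Mitf* and of *Acp5* is the brighter one. *Trem2* and *Nfatc1* step down from CTLA-4-Ig to vehicle, and *Tyrobp* and *Oscar* are highest on hIgG.

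*Trem2* encodes a receptor for lipids and lipoproteins on myeloid cells, and signals through Tyrobp. Its signal was 2719 with CTLA-4-Ig, 2443 with hIgG and 2037 with vehicle. It was thus highest with CTLA-4-Ig and lowest with vehicle, and both protein-treated cultures lay above the vehicle culture. The log2 ratio of *Trem2* was 0.42 for CTLA-4-Ig against vehicle (1.33-fold), 0.26 for hIgG against vehicle and 0.15 for CTLA-4-Ig against hIgG. Of the 8293 genes whose mean signal reached 25, 3.99% had a higher ratio for CTLA-4-Ig against vehicle and 5.63% a higher ratio for hIgG against vehicle. Above the median of all genes, *Trem2* stood at 0.31 for CTLA-4-Ig against vehicle and at 0.07 for CTLA-4-Ig against hIgG. The first is larger and the second smaller than the SD of 0.17 across genes between the controls. Between the controls it stood at 0.24, also larger than this SD.

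*Tyrobp* encodes DAP12, the membrane adaptor whose cytoplasmic tyrosine motif recruits the kinase Syk. Its signal was 2605 with CTLA-4-Ig, 3129 with hIgG and 2463 with vehicle. In the deposited values the hIgG array stood above the others, and CTLA-4-Ig and vehicle lay close together. With normexp, another background correction, the log2 ratio of CTLA-4-Ig to vehicle was 3.35. The background column it subtracts was 4625 on the vehicle array, above the spot intensity of 4447. Little of the spot signal was thus left for this ratio, which is not read as a difference of *Tyrobp*. The log2 ratio of *Tyrobp* was 0.35 for hIgG against vehicle (1.27-fold), -0.26 for CTLA-4-Ig against hIgG and 0.08 for CTLA-4-Ig against vehicle. Only 2.33% of the 8293 brighter genes had a higher ratio for hIgG against vehicle, and 3.59% had a lower ratio for CTLA-4-Ig against hIgG. Receptor and adaptor differed in which array was highest in these single arrays. For *Trem2* this rests on a log2 ratio of 0.15 for CTLA-4-Ig against hIgG, only 0.07 above the all-gene median. The log2 ratio of *Trem2* exceeded that of *Tyrobp* by 0.42 for CTLA-4-Ig against hIgG and by 0.34 for CTLA-4-Ig against vehicle, and lay 0.08 under it for hIgG against vehicle.

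*Oscar*, the osteoclast-associated receptor, binds collagens and signals through the Fc receptor gamma chain. Its signal was 24.9 with CTLA-4-Ig, 29.7 with hIgG and 26.9 with vehicle. It was the only one of the 8 genes that was lowest on the CTLA-4-Ig array. The log2 ratio of *Oscar* was -0.26 for CTLA-4-Ig against hIgG, where 3.87% of the 8293 brighter genes lay lower, -0.11 for CTLA-4-Ig against vehicle and 0.14 for hIgG against vehicle. Its adaptor gene *Fcer1g*, named for this role after its values were seen, had signals of 3747, 4157 and 3947 in the same order of arrays. Both genes were thus highest on hIgG and lowest on CTLA-4-Ig, with small log2 ratios for *Fcer1g* of -0.15 over hIgG and -0.08 over vehicle. The other adaptor gene, *Tyrobp*, was lowest on vehicle.

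*Calcr*, the calcitonin receptor, marks mature osteoclasts in the mouse. Its probe lay near the detection limit, with a signal of 2.5 under CTLA-4-Ig, 2.2 under hIgG and 2.4 under vehicle, which is 3.16, 2.46 and 2.49 times the detection limit. The range of 0.30 between the arrays was smaller than 1 SD of the blank spots, which was 0.396 to 0.482 in the same unit, so that a difference of *Calcr* was not detectable at this signal. Its log2 ratios ran from -0.13 to 0.18.

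The signal of *Nfatc1* was 33.7 with CTLA-4-Ig, 28.6 with hIgG and 25.6 with vehicle, the same order of arrays as for *Trem2*. Its log2 ratio was 0.40 for CTLA-4-Ig against vehicle (1.32-fold), 0.24 for CTLA-4-Ig against hIgG and 0.16 for hIgG against vehicle. Of the 8293 brighter genes 4.74% had a higher ratio for CTLA-4-Ig against vehicle and 14.2% for CTLA-4-Ig against hIgG. Relative to the median of all genes, *Nfatc1* stood at 0.29 over vehicle, above the spread between the controls, and at 0.15 over hIgG, below it. With normexp its ratios shrank to 0.03 against vehicle and 0.01 against hIgG. The subtracted background column was 89.9 on the vehicle array, against a spot intensity of 90.9.

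*Mitf* encodes a basic helix-loop-helix factor of osteoclasts, macrophages and pigment cells. The brighter of its probes gave 385 with CTLA-4-Ig, 355 with hIgG and 406 with vehicle, and the dimmer one 21.3, 20.7 and 18.8. The vehicle array was the highest by the first probe and the lowest by the second. For CTLA-4-Ig against vehicle the log2 ratio was -0.07 by the brighter probe and 0.18 by the dimmer one, and for hIgG against vehicle it was -0.19 and 0.14. Both probes carry the same transcript accession, and where on the transcript each lies is not given in the sources used here. Averaged over both probes, *Mitf* had the smallest range of the 8 genes, with log2 ratios between -0.03 and 0.08. Relative to *Mitf*, the log2 ratio of *Nfatc1* was higher by 0.35 for CTLA-4-Ig against vehicle.

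*Ctsk*, the collagen-degrading protease of resorbing osteoclasts, reached 1214 with CTLA-4-Ig, 991 with hIgG and 1096 with vehicle. It was highest with CTLA-4-Ig and lowest with hIgG. Its log2 ratio of 0.29 for CTLA-4-Ig against hIgG (1.22-fold) was the highest of the 8 genes, and 8.51% of the 8293 brighter genes had a higher one. The log2 ratio was 0.15 for CTLA-4-Ig against vehicle and -0.14 for hIgG against vehicle. Above the median of all genes *Ctsk* stood at 0.20 for CTLA-4-Ig against hIgG and at 0.04 for CTLA-4-Ig against vehicle, the first slightly above and the second below the SD between the controls.

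*Acp5* was measured by a bright probe, at 182 with CTLA-4-Ig, 178 with hIgG and 160 with vehicle, and by a dim one, at 6.97, 8.80 and 7.90. Against hIgG the bright probe showed almost no difference (log2 ratio 0.03), and the dim probe was lower on CTLA-4-Ig (-0.34). The probes also had opposite signs over vehicle, at 0.18 and -0.18, but gave the same ratio for hIgG against vehicle, at 0.16. The mean of both probes gave -0.15 for CTLA-4-Ig against hIgG and 0.00 over vehicle, and the first of these rests on the dim probe. The resorption enzymes thus had opposite signs over hIgG by these means, and with the bright *Acp5* probe alone both lay above 0. That probe still lay below the all-gene median of 0.09, and *Ctsk* above it.

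**Figure D2:**
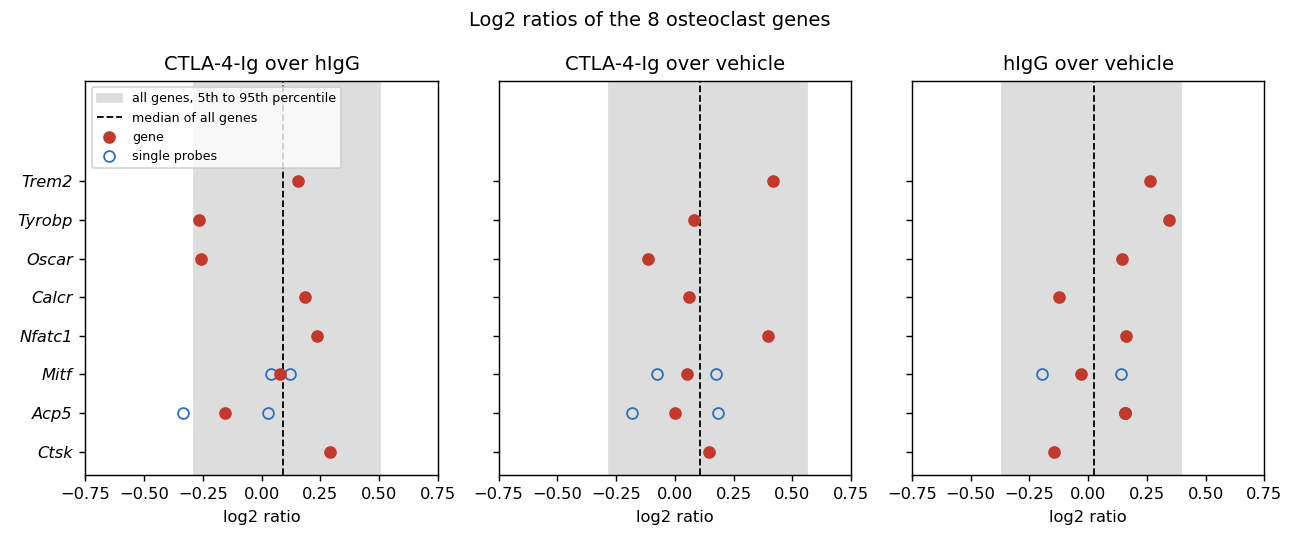
Log2 ratio of the 8 genes (filled points) in the 3 comparisons, with open points for the single probes of *Mitf* and *Acp5*. The grey band is the 5th to 95th percentile and the dashed line the median of all 15628 genes, and all filled points lie inside the band, which is wider than that of the brighter genes alone.

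The synovial macrophage markers are given beside these genes because *Trem2*, *Tyrobp*, *Oscar* and *Acp5* are expressed by myeloid cells. The median log2 ratio of the 10 macrophage markers was -0.04 for CTLA-4-Ig against hIgG, 0.09 for CTLA-4-Ig against vehicle and 0.16 for hIgG against vehicle, and 3, 5 and 9 of the 10 exceeded the all-gene median. Their summed signal, most of it from *Lyz2*, was 41376 with CTLA-4-Ig, 38731 with hIgG and 35532 with vehicle. Without *Lyz2* the sum of the other 9 was 9355, 9946 and 8243, highest on hIgG, so that the order of the sum was set by this gene (this sum was added after the data were seen). For the 9 FLS markers the medians were 0.08, 0.10 and -0.13, in that order of comparisons. Their summed signals were 16206, 14355 and 15996, lowest on hIgG, as were *Ctsk*, *Mitf* and *Calcr* and 33.6% of all genes. Most of this sum came from *Col1a2* and *Prg4*, and not all of the 9 shared its order. *Fap* was highest on hIgG, *Pdpn* and *Dcn* were lowest on vehicle, and *Lum* was lowest on CTLA-4-Ig. Single macrophage markers differed from each other. Against hIgG, the log2 ratio of CTLA-4-Ig ran from -0.80 for *Fcgr1*, a high-affinity IgG receptor, to 0.28 for *Cd68*, a lysosomal protein. *Fcgr1* had 0.82 between the controls, and *Cd68* had 0.21. The part of the cell mixture in the ratios of the osteoclast genes was not tested.

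**Figure D3:**
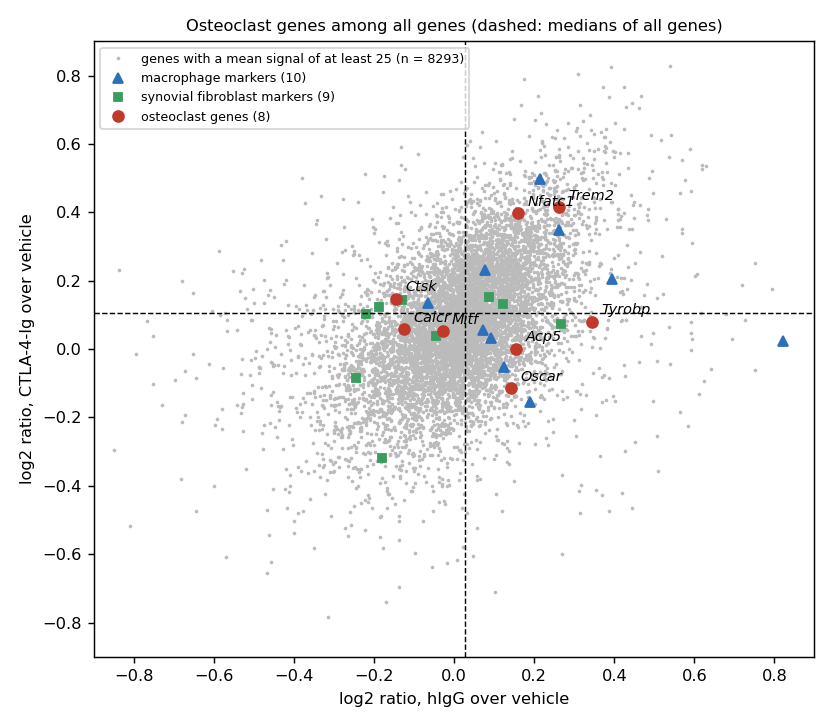
Log2 ratio over vehicle of hIgG (horizontal axis) and of CTLA-4-Ig (vertical axis) for 8293 genes whose mean signal reached 25 (grey, 11 of them beyond the axes), 10 macrophage markers, 9 FLS markers and the 8 osteoclast genes. Both axes share the vehicle array, so the slant of the cloud is no result, and the osteoclast genes lie within the cloud.

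*Trem2* lay furthest from the medians of all genes among the members whose mean signal reached 25. The genes nearest to it by distance in the log2 ratios of CTLA-4-Ig and of hIgG against vehicle, out of 8292 genes on 3 arrays, were *Enoph1*, *E2f1* and *Lratd2*. Their ratios for CTLA-4-Ig against vehicle were 0.42, 0.42 and 0.42, and for hIgG against vehicle 0.26, 0.27 and 0.25. In all, 229 genes lay within a distance of 0.1 of *Trem2*, so that its pattern was shared by many genes.

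Among 81 other genes of the osteoclast pathway, 76 were detected on all 3 arrays and are described here, and the others were not used here. For CTLA-4-Ig against hIgG 1 of the 76 was at least 2-fold higher and none was lower, for CTLA-4-Ig against vehicle none was apart, and for hIgG against vehicle 1 was lower. With 76 genes these counts are near the shares over all genes (0.627%, 0.8% and 0.512%). Both calls were *Tnfrsf11b* (osteoprotegerin, the decoy receptor of RANKL), with a signal of 86.9 with CTLA-4-Ig, 41.1 with hIgG and 83.5 with vehicle. Its log2 ratio was 1.08 for CTLA-4-Ig against hIgG, which became 0.98, just under 2-fold, with scaling to the median of the jointly detected probes, and -1.02 between the controls under both scalings. At 1.5-fold the counts were 3, 1 and 4 of 76, against 4.52%, 5.43% and 3.69% of all genes. The 4 between the controls were all lower on hIgG, and 2 of them were dim (*Cd44* and *Mmp9*). The 1 gene against vehicle was *Cd44*, a hyaluronan receptor, whose probe lay at the detection limit with signals of 0.997, 0.9 and 1.5. The median log2 ratio of the 76 genes was 0.07, 0.09 and 0.04 in the same order of comparisons, close to that of all genes.

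By role, the 6 ligands and decoys had *Tnf* as the lowest gene over hIgG, with a log2 ratio of -0.60. RANKL itself (*Tnfsf11*) had signals of 92.2, 118 and 107, and its receptor *Tnfrsf11a* (RANK) dim signals of 4.43, 4.5 and 3.3. Both were named for their role after their values were seen. Among 10 receptors and co-receptors, *Itgb3*, the integrin chain by which osteoclasts attach to bone, was highest over hIgG (0.20), and *Cd47*, a ligand of Sirpa, lowest (-0.35). For 18 signalling genes the median was -0.06 over hIgG, and 12 lay below the median of all genes, with *Btk*, a kinase downstream of the adaptors, lowest (-0.49) and the adaptor *Shc1* highest (0.33). The 11 transcription factors had a median of 0.08 over hIgG and 0.24 over vehicle, where 7 exceeded the all-gene median and 4 did not. *Tfeb*, a relative of Mitf, was highest over hIgG (0.44) and *Myc* lowest (-0.16). Over vehicle *Fos*, an AP-1 factor required for osteoclast formation, was highest, at 132, 109 and 88.0 (log2 ratio 0.58, chosen after its value was known).

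Of 7 genes listed as repressors of osteoclast formation, *Nr4a1* was highest over hIgG (0.61, signals of 17.8, 11.6 and 18.3) and *Irf2* lowest (-0.07). For *Nr4a1* it was thus the hIgG array that stood apart. The 6 genes of cell fusion had a median of 0.08 over hIgG and 0.18 over vehicle. *Atp6v0d2*, a proton pump subunit also needed for fusion, was highest over hIgG (0.31, signals of 192, 155 and 170), and *Ocstamp*, a membrane protein of fusing cells, was lowest (-0.10) at 1.495, 1.6 and 1.3, close to the detection limit. The 18 genes of acid secretion and resorption had medians of 0.14 against hIgG, 0.15 against vehicle and 0.02 between the controls. The ends of this group over hIgG were *Mmp9* (0.48), which was dim at 3.06, 2.20 and 3.40, and *Ckb* (-0.34), the brain-type creatine kinase, at 719, 912 and 678. None of these roles held a gene 2-fold apart other than the decoy receptor.

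**Figure D4:**
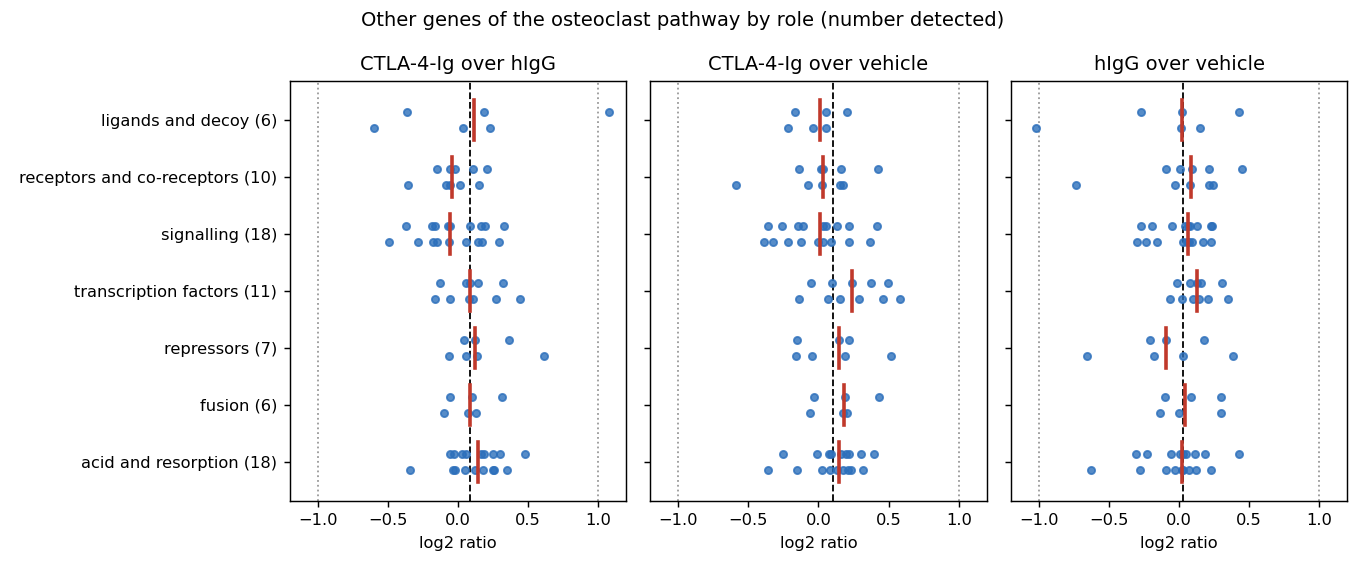
Log2 ratio of the 76 detected genes of the wider osteoclast list by role (points), with the median of each role (red bar), the median of all genes (dashed line) and 2-fold in either direction (dotted lines). Beyond the dotted lines lies only *Tnfrsf11b*, for CTLA-4-Ig against hIgG and for hIgG against vehicle.

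With another background correction, normexp, the order of the arrays changed for 5 of the 8 genes and was the same for *Nfatc1*, *Acp5* and *Ctsk*, although the ratios of *Nfatc1* came close to 0. With normexp on the spot and background columns, *Trem2* had a log2 ratio of -1.44 and *Tyrobp* of 0.43 for CTLA-4-Ig against hIgG, each on the other side of 0. The largest shift of any ratio was 3.27, for *Tyrobp* with CTLA-4-Ig against vehicle, and its ratio between the controls was 2.91. *Ctsk* reached 1.49 for CTLA-4-Ig against hIgG, and 2 of the 8 genes passed 2-fold in each comparison. The background column follows the spot signal on these arrays (correlation of log2 values across probes at least 0.99), and for *Trem2* on the vehicle array it was 3854 against a spot intensity of 3686. The blank spots had mean intensities between 45.2 and 49.4. Subtracting this column thus removes much of the signal itself, and the normexp ratios are not read as differences of the genes.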

How the data were processed

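Total RNA of 3 cultures was labelled with Cy5 and hybridized by the authors to 3D-Gene mouse oligo chips, 1 array per condition. The deposited spot and background intensity of each array came from the scanner software, and the authors deposited a table of normalized intensity values, in which background was subtracted and the median of the detected signals adjusted to 25. No genome build of the probes is given in the sources used here, and 0 columns of sample values were unused. The normalized table was the main source. Rebuilding it from the scanner intensity, with the mean of 384 blank spots after dropping 5% at each end as zero, gave the same detected probes on every array (0 differed), and this rule was inferred from the table. Symbols came from the platform annotation, updated by gene identifier to RefSeq (GRCm38.p6), and 2783 probes carried none. A gene took the mean log2 signal of its probes. Within an array, the positive control spots varied by 6.17% to 13.3% (coefficient of variation). Between arrays, the scanner intensity of one positive control ranged from 2322 (CTLA-4-Ig) through 2949 (hIgG) to 3892 (vehicle), 1.68-fold, and that of the other 1.06-fold. Precision between conditions is limited by having 1 array each.

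The samples were grouped by the treatment in their labels. Log2 ratios were computed in Python 3.11.15 (pandas 2.3.3, numpy 2.4.6), alternatives with limma 3.58.1 in R 4.3.3, and figures with matplotlib 3.10.9. The counting was tested on simulated data. Members and lists were chosen with earlier results of these data known. Named were all members, from the wider list any gene past 2-fold and otherwise the highest and lowest over hIgG in each role. The 3 genes nearest to the member furthest from all genes were also named. Added outside this rule after their values were seen were *Fcer1g*, *Tnfsf11*, *Tnfrsf11a*, *Fos* and *Cd44*. The same holds for the macrophage markers *Fcgr1*, *Lyz2* and *Cd68* and the FLS markers *Col1a2*, *Prg4*, *Fap*, *Pdpn*, *Dcn* and *Lum*. Alternatives were the scanner intensities, quantile normalization, cyclic loess, the 75th percentile, scaling to the median of the jointly detected probes, a normexp background correction (offset 50), a pseudocount of 1, a floor of 1, a mean signal of at least 25, a 1.5-fold threshold and the brightest probe.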

Additional observations from a re-analysis of the deposited data

How the results depend on the processing

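No paired analysis was possible because each of the conditions had a single array, with nothing to pair. Of 66 medians of the osteoclast genes and of the wider list, 13 could not or did not change under their alternative. Of the other 53, 10 changed sign, with a largest shift of 0.13, about as large as the medians themselves. In 12 of the 66 the side of the all-gene median changed. Of 261 ratios of single osteoclast genes, 95 kept the same value, in part because a threshold, filter or probe choice could not alter them. Among the other 166, 18 moved by more than 0.17, the SD across genes between the controls, and 22 changed sign. Without normexp, 4 of 142 moved by more than this and 14 changed sign. These 4 were *Acp5* by its brightest probe (0.03 over hIgG and 0.18 over vehicle) and *Calcr* over vehicle with quantile normalization (-0.15) and cyclic loess (-0.12). With normexp the count of osteoclast genes past 2-fold was 2 in each comparison in place of 0, and that of the wider list was 2 against hIgG, 5 against vehicle and 5 between the controls. Normexp subtracts a background column that follows the spot signal, so these counts are not read as differences of the genes. With scaling to the median of the jointly detected probes the wider list held 0 genes past 2-fold over hIgG (*Tnfrsf11b* at 0.98). At 1.5-fold, with the deposited scaling, the wider list held 3, 1 and 4. *Calcr* was left out where a mean signal of at least 25 was required.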
